A study of Homo sapiens with 6 samples.

Results

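The ID genes encode small helix-loop-helix proteins without a basic DNA-binding region, and 4 of them, ID1, ID2, ID3 and ID4, were chosen by gene name among the 27009 genes of the deposited table. The choice was made with the values of this comparison in view, so the difference of the 4 genes between the groups is given here as a description and no p-value is given for them. RNA sequencing was performed on 6 libraries of cells labelled Hep3B, a human liver cancer line, to compare gene expression with and without PD-L1 in the nucleus. All 6 libraries carried a knockout of endogenous PD-L1. The vector group (n = 3) received the empty vector, and the nPD-L1 group (n = 3) received nPD-L1, a mutated PD-L1 that stays in the nucleus, by lentivirus under a CMV promoter with puromycin selection.

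ID proteins pair with the widely expressed E proteins (TCF3, TCF4 and TCF12) and hold them off their DNA sites, so that E proteins and their tissue-specific bHLH partners cannot activate transcription. ID1, ID2 and ID3 are textbook target genes of BMP signaling, in which ligands bind type I and type II receptors, the receptors phosphorylate SMAD1, SMAD5 and SMAD9, and these enter the nucleus with SMAD4. In liver cells, ID1 is known as one of the first transcripts to respond to BMP6, together with the feedback inhibitors SMAD6 and SMAD7.

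Values are scaled reads, that is, reads counted on a gene after division by the size factor of its library. The libraries held 17427519 to 22253295 reads on genes. CD274, which encodes PD-L1, was examined first. It stood at 28.3, 38.4 and 47.8 scaled reads with the vector, against 16.8, 19.2 and 30.9 for nPD-L1 (log2 difference −0.76, standard error 0.34, adjusted p = 0.338 from limma). Since CD274 was not higher where nPD-L1 had been introduced, the group is called by its label, and every direction rests on the labels. The defining liver transcripts were also nearly absent. Of 8 hepatocyte markers, 7 had a row in the table used and 2 were abundant enough to be tested. FGB, a fibrinogen chain, ranged from 962 to 1540 and SERPINA1 from 7.91 to 41.4, whereas ALB did not exceed 2.02 in any library, APOA1 2.02 and TTR 2.89, and AFP, the marker without a row, was not analysed here. Of 5 fibroblast markers, COL1A1 and LUM were tested and COL1A1 passed (49.9 to 82.8 with vector, 445 to 487 with nPD-L1). LUM had a mean of 131 with vector and 137 with nPD-L1, and DCN and PDGFRB did not exceed 5.04 and 8.31 in any library. The summed level of these markers was 170 to 245 in the vector libraries and 586 to 655 in those labelled nPD-L1. The rise of this sum was thus mostly that of COL1A1 alone, and its part in the results below was not tested. Endothelial and leukocyte markers summed to at most 16.8 in any library.

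The sequence before the start of each ID gene is shown first, as a description. The stretches come from RefSeq windows on GRCh38.p14, where 4 of 4 genes were matched by symbol, and read 5′ to 3′ on the gene's own strand. Capitals mark matches on either strand to all motifs searched except the E-box, which was left in lower case. The motifs in capitals were the CCAAT box (letters CCAAT), the TATA element (letters TATAA), a SMAD-binding sequence (letters CAGAC), a second one (letters GGCGCC) and the core of a cAMP response element (letters TGACG). For ID2 and ID3, most or all of the 250 bases before the RefSeq start lie in exons of longer annotated transcripts, 202 bases for ID2 and 250 for ID3, so the 30 bases around the usual TATA position are given. The stretches are ID1 at chr20:31605039-31605282 (+ strand), ID2 at chr2:8682011-8682040 (+ strand), ID3 at chr1:23559517-23559546 (− strand) and ID4 at chr6:19837120-19837369 (+ strand).
ID1: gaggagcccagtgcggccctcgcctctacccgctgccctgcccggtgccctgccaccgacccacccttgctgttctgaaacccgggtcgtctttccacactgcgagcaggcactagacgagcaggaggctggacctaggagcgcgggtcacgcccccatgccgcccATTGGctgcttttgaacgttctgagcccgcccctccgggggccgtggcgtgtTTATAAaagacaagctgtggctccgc
ID2: ccccggcgagtgcggataaaagccgccccg
ID3: ccttccaggcaggctcTATAAgtgaccgcc
ID4: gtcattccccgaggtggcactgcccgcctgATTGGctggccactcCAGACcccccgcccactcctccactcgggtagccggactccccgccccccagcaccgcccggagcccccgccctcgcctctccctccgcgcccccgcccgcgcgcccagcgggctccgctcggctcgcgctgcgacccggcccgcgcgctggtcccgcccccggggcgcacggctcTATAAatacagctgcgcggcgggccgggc

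A TATAA on the gene's own strand began at position −31 in ID1 and at −29 in both ID3 and ID4, counted back from the RefSeq start, and none was found in the 250 bases of ID2. Only exact letters were searched, and the printed ID2 stretch holds gataa, which differs from TATAA in its first letter alone. Of 35116 windows in the RefSeq table, several per gene where a gene has several starts, 3.57% held TATAA on that strand between −35 and −25, a range set after the matches had been seen, and 18.9% held it anywhere on either strand. The CCAAT box was found in ID1 (−84), ID4 (−220) and, at 3 places, in ID2 (−172, −122 and −78), but not in ID3, and it occurs in 32% of all windows. CAGAC was found in ID3 (−147) and ID4 (−205), against 38% of all windows, and overlapped a TGACG match at −150 in ID3. GGCGCC was in none of the 4 windows and in 16.4% of all. An E-box (CANNTG), the site that E proteins bind, was found in ID2 (−205) and ID4 (−21), where it is CAGCTG in both, and in 61.8% of all windows. These matches describe the letters of each window and were not tested against the expression values.

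ID3 (ENSG00000117318) had the largest difference of the 4 genes. It lies on the − strand of chromosome 1 from 23557918 to 23559794, where its coding transcript has 3 exons. ID3 had 996, 1833 and 949 scaled reads in vector replicates 1, 2 and 3, against 7397, 7841 and 6465 under the nPD-L1 label. The groups did not overlap, and the lowest library labelled nPD-L1 was 3.53 times the highest vector library. The means were 1259 ± 497 and 7234 ± 702 (SD, n = 3 each), a 5.74-fold ratio and a log2 difference of 2.58 (standard error 0.21) on the log2(value + 1) scale. Among the 15076 genes tested, 68 had a larger log2 difference. ID3 also had the widest spread among the vector libraries, a coefficient of variation of 39.5%, because replicate 2 stood well above the other two. Counting error was 1.07% to 3.31% per library for ID3, far below that spread. Replicate 2 stood 0.91 above the mean of vector replicates 1 and 3 on the log2 scale, as it did by at least as much for 74 of the 10725 genes whose mean reached 100. Without this library the log2 difference of ID3 was 2.89.

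ID1 (ENSG00000125968) came next. It lies on the + strand of chromosome 20 from 31605283 to 31606515. ID1 had 752, 946 and 894 scaled reads across the vector libraries, against 3212, 2825 and 2281 under the nPD-L1 label. No value of one group reached the other, and the gap between the groups was a factor of 2.41. The means were 864 ± 101 and 2773 ± 467 (SD, n = 3 each), a ratio of 3.21 and a log2 difference of 1.67 with a standard error of 0.14. Of the genes tested, 190 had a larger log2 difference. The mean of ID1 ranked above 69.2% of tested genes with vector, and above 91.6% with nPD-L1.

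ID4 (ENSG00000172201), the least abundant member, lies on the + strand of chromosome 6 from 19837386 to 19840684. ID4 is a member whose transcription is prominent in the nervous system and the mammary gland. For ID4 the vector libraries gave 410, 507 and 415 scaled reads and the others 767, 833 and 669. The groups stayed apart by a factor of 1.32. The means were 444 ± 54.8 and 757 ± 82.5 (SD, n = 3 each), a ratio of 1.70 and a log2 difference of 0.77 with a standard error of 0.13. A larger log2 difference was seen in 720 genes. A transcript annotated on the opposite strand, AL022068.1, overlaps ID4, and its level was 38.7 ± 14.3 against 42.8 ± 7.93 scaled reads (SD, n = 3 each).

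ID2 (ENSG00000115738) differed least. It lies on the + strand of chromosome 2 from 8678845 to 8684453. ID2 had 1320, 1342 and 1465 scaled reads across the vector libraries, against 1686, 1760 and 1434 under the nPD-L1 label. The groups overlapped, because nPD-L1 replicate 3 fell below vector replicate 3. The means were 1376 ± 78.3 and 1627 ± 171 (SD, n = 3 each), a log2 difference of 0.24 with a standard error of 0.11, and 2863 genes had a larger one. The antisense transcript ID2-AS1 (ENSG00000235092) overlaps the first part of ID2 on the − strand. Its values were 38.4, 46.3 and 61.3 for vector, against 43.7, 51.6 and 47.3 for nPD-L1. The library kit does not mark strand, so reads from the overlap of ID2 and ID2-AS1, or of ID4 and AL022068.1, cannot be told apart.

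**Figure D1:**
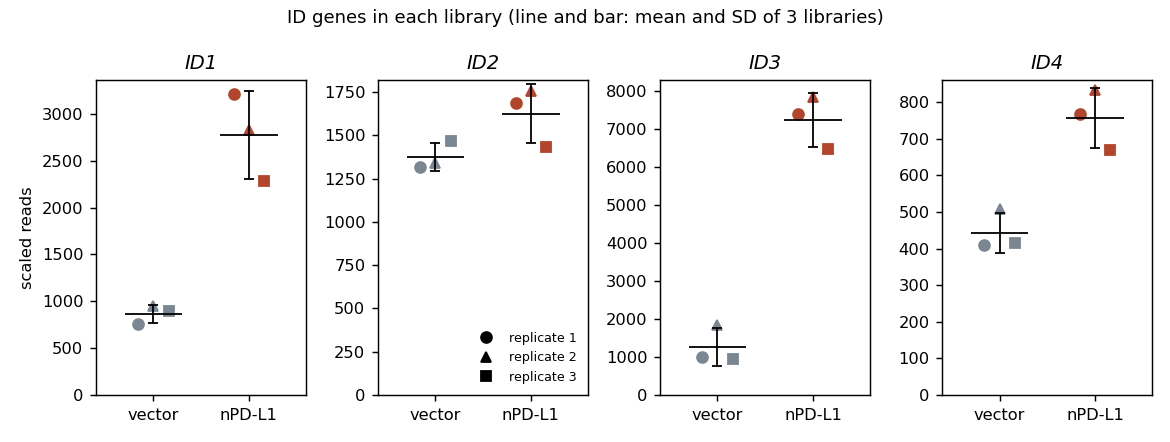
Scaled reads (y axis, linear from 0, a separate scale for each gene) of ID1, ID2, ID3 and ID4 in the vector and nPD-L1 libraries (x axis), with the replicate number as the symbol and the mean and SD of 3 libraries in black. For ID1, ID3 and ID4 the lowest library labelled nPD-L1 lies above the highest vector library, for ID2 the groups overlap, and vector replicate 2 of ID3, at 1833, stands apart from the other two.

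Across the 4 genes, 3 had no overlap between the groups with the libraries labelled nPD-L1 higher, as did 12% of all genes tested, and the same 3 had an adjusted p under 0.05 in limma, against 4.04% of all genes tested in that direction (0.922% were lower by that test, and 8.54% lower with no overlap). Since the genes were chosen with this comparison known, nothing is read from these counts. nPD-L1 replicate 3 was the lowest of its group for all 4 genes. Vector replicate 2 was the highest of its group for ID1, ID3 and ID4 but not for ID2. With bulk RNA, a change in the number of cells that express a gene and a change in its RNA per cell cannot be told apart.

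Levels of the 4 genes were compared per kilobase of deposited gene length. In the vector libraries, ID3 (701 ± 277 scaled reads per kilobase), ID1 (701 ± 81.6) and ID2 (624 ± 35.5) overlapped in range, and ID4 lay below them at 189 ± 23.4 (SD, n = 3). Under the nPD-L1 label the 4 levels no longer overlapped. The order was ID3 (4026 ± 391), ID1 (2249 ± 379), ID2 (738 ± 77.4) and ID4 (323 ± 35.2 scaled reads per kilobase; SD, n = 3). The summed level of the 4 genes ranged from 1938 to 2612 scaled reads per kilobase with vector and from 6384 to 7813 with nPD-L1, and the means differed 3.31-fold. ID3 contributed 64.9% of the difference between the 2 mean sums and ID1 30.2%, while ID4 gave 2.61% and ID2 2.22%. The share of ID3 in the sum was 31.0% ± 7.21 for vector, against 55.0% ± 2.0 for nPD-L1 (SD, n = 3). The share of ID2 was 28.6% ± 4.65 and 10.1% ± 0.243, that of ID1 31.8% ± 2.63 and 30.6% ± 2.42, and that of ID4 8.58% ± 0.389 and 4.41% ± 0.191 (SD, n = 3). By the deposited lengths, ID1, ID2 and ID3 thus took similar shares with vector, whereas with nPD-L1 the mean share of ID3 exceeded that of the other members together. The levels and shares depend on the length used, and other transcript lengths were not tried.

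**Figure D2:**
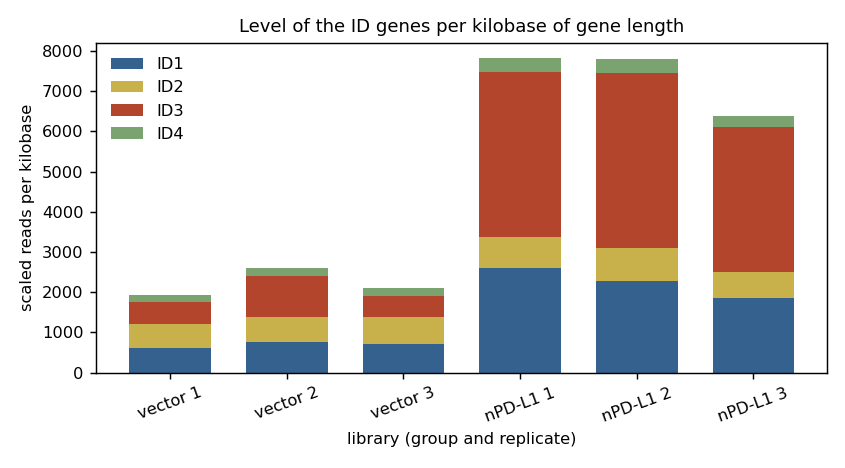
Scaled reads per kilobase of deposited gene length (y axis, from 0) for ID1, ID2, ID3 and ID4, stacked for each library (x axis). The bars of the vector libraries end between 1938 and 2612 and those labelled nPD-L1 between 6384 and 7813, with the ID3 segment the largest in each of the latter.

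The partners of ID proteins were examined next, in the fit across all genes, where 4.96% of the 15076 genes tested passed in either direction. Neither E protein that could be tested passed. TCF12 had 1293 ± 203 scaled reads for vector, against 1427 ± 62.9 for nPD-L1, a log2 difference of 0.15 (standard error 0.13), and TCF3 had 1777 ± 223 and 1722 ± 295, a log2 difference of −0.05 (standard error 0.14; SD, n = 3 each). TCF4 did not exceed 7.08 in any library and was not tested. Of 40 class II bHLH factors, the tissue-specific partners of E proteins, 20 were in the table and 9 were tested. None of the 9 passed in limma (0 in edgeR as well). MSC, at 71 ± 14 and 103 ± 20.8 scaled reads, had the smallest p, 0.0438 unadjusted and 0.327 adjusted in limma, and was the only one of the 9 with an unadjusted p under 0.05. The 9 had a median log2 difference of 0.02, against −0.02 over all genes tested.

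HES and HEY proteins are bHLH repressors that do bind DNA, and 1 of 7 tested passed. HEY1, a target of both Notch and BMP signaling, rose from 54.1 ± 15.3 to 601 ± 46.3 scaled reads (log2 difference 3.48, standard error 0.20, adjusted p = 2.96e-06 from limma). HES1, the principal Notch target in many tissues, was at 370 ± 23.0 and 319 ± 13.9 (log2 difference −0.21, adjusted p = 0.505 from limma). HES1 did not pass, although the groups did not overlap.

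Of the BMP pathway upstream of the ID genes, 12 of 24 listed ligands and antagonists were tested, and 3 rose. BMP2, a ligand that acts through SMAD1 and SMAD5, went from 19.6 ± 6.91 to 88.5 ± 9.77 scaled reads (log2 difference 2.17, standard error 0.29, adjusted p = 0.00132 from limma). NOG, which encodes the secreted BMP antagonist noggin, stood at 10.1, 1.13 and 10.4 for vector, the second of these a single read, and at 181, 127 and 86.8 with nPD-L1 (log2 difference 4.30, standard error 0.59, adjusted p = 0.00149 from limma). The log2 difference of NOG was 3.50 without vector replicate 2 and 3.04 with a pseudocount of 10. NOG reached 10 in 3 libraries only through those labelled nPD-L1, where it was high. When a value of at least 10 was required in all libraries, NOG was not tested and 2 genes of this list were called. FSTL3, an activin-binding antagonist, rose from 1506 ± 147 to 3367 ± 437 (log2 difference 1.16, adjusted p = 0.000197 from limma). BMP4 was at 104 ± 17.7 and 66.8 ± 7.07, a log2 difference of −0.62 that did not pass (adjusted p = 0.153 from limma). The groups did not overlap for BMP4, which was lower under the nPD-L1 label. The median log2 difference of the 12 genes was 0.03.

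Among 13 tested BMP and TGF-beta receptors, 3 rose and 1 fell, with a median log2 difference of 0.04. BMPR2, a type II receptor of BMP ligands, rose from 621 ± 59.3 to 2242 ± 242 scaled reads (log2 difference 1.85, standard error 0.12, adjusted p = 5.65e-06 from limma). The type I receptors TGFBR1 and ACVR1 rose by less, with log2 differences of 0.73 and 0.66 (adjusted p = 0.00356 and 0.0208 from limma). TGFBR2, the type II receptor of TGF-beta, fell from 3611 ± 306 to 2542 ± 180, or −0.50 on the log2 scale (adjusted p = 0.0171 from limma). The call of ACVR1 was lost in 3 of the 6 fits without a library (vector replicate 1, nPD-L1 replicate 1 or nPD-L1 replicate 3) and that of TGFBR2 in 4 (vector replicate 1 or any nPD-L1 replicate), with adjusted p of up to 0.124 and 0.128 in limma. BMPR1A, a BMP type I receptor, was at 853 ± 72.9 and 939 ± 44.0 (log2 difference 0.14, adjusted p = 0.630 from limma).

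Of 18 tested SMADs and inhibitors, 9 rose and 0 fell, and the median log2 difference was 0.59, against −0.02 over all genes tested. Like the others, this list was chosen with earlier results of these data known, so nothing is read from its share or median. The 9 that rose were inhibitors or feedback genes, and none of the SMADs that carry the signal passed. The listed inhibitors TGIF1, TGIF2 and ZEB2 did not pass either (log2 differences 0.31, 0.31 and −0.44, adjusted p = 0.129, 0.308 and 0.598 from limma). The groups did not overlap for TGIF1 and TGIF2. SKIL and SKI, which encode co-repressors bound by SMADs, had log2 differences of 3.83 and 2.41. SMAD7 and SMAD6, the inhibitory SMADs, had 2.21 and 1.0, from 580 ± 71.4 to 2680 ± 75.5 and from 1313 ± 76.4 to 2630 ± 131 scaled reads (SD, n = 3 each). PMEPA1 and BAMBI, membrane inhibitors of the pathway, had 1.83 and 1.77, and the ubiquitin ligase SMURF2 had 1.11. The remaining members that rose were SMURF1 (0.74) and the phosphatase PPM1A (0.43), and PPM1A lost its call without vector replicate 1 or any nPD-L1 replicate. The largest adjusted p among the 7 genes other than SMURF1 and PPM1A was 0.000118 in limma (SMAD6). SMAD1 was at 152 ± 43.4 and 159 ± 3.68 scaled reads (log2 difference 0.10), SMAD5 at 1359 ± 226 and 1403 ± 97.0 (0.06), SMAD4 at 819 ± 19.7 and 965 ± 59.1 (0.23) and SMAD9 at 12.6 ± 7.08 and 28.0 ± 10 (1.15), and the smallest adjusted p among these 4 was 0.255 in limma. The groups did not overlap for SMAD4. SMAD2 and SMAD3, which carry TGF-beta and activin signals, did not pass either. SMAD2 was at 1248 ± 36.5 and 1200.0 ± 27.0 (−0.06), and SMAD3 at 5203 ± 844 and 6827 ± 216 (log2 difference 0.40, adjusted p = 0.120 from limma), where the groups did not overlap. The directions of SMAD1 and SMAD5 turned without vector replicate 2 (−0.16 and −0.08).

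**Figure D3:**
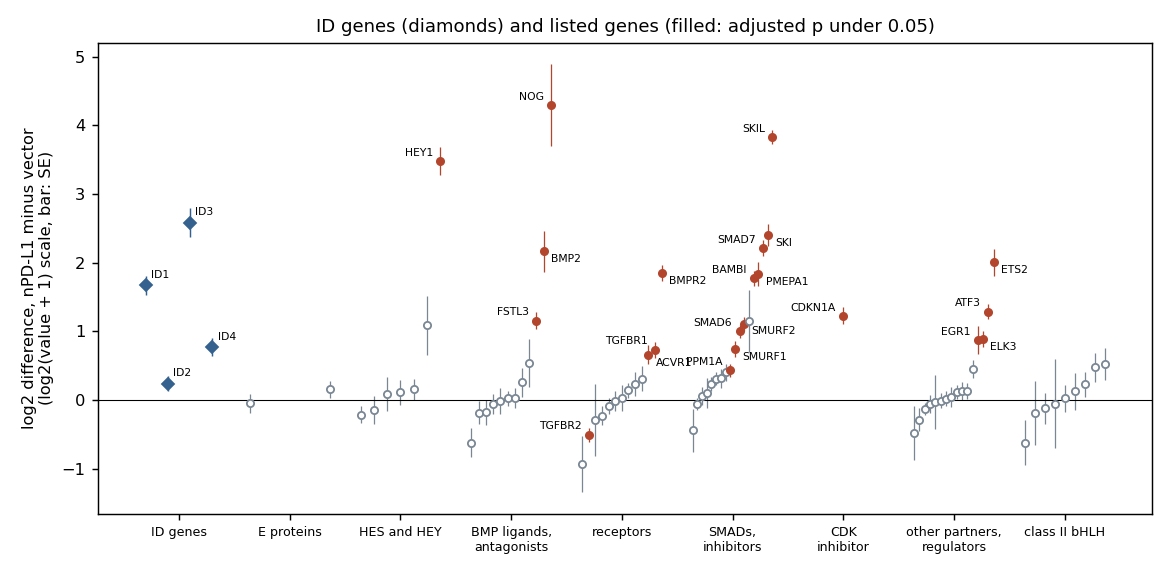
Log2 difference, nPD-L1 minus vector, on the log2(value + 1) scale (y axis, bars show the standard error) of the 4 ID genes (diamonds) and of the tested genes of each list (x axis). Filled circles had an adjusted p under 0.05 in limma and carry their names. Filled circles are 0 of 2 E proteins, 0 of 9 class II bHLH factors and 9 of 18 SMADs and inhibitors, against 4.96% of all genes tested. The lists were chosen with earlier results of these data known, so nothing is read from these counts.

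Of other genes known to act with the ID proteins or on ID transcription, 16 of 20 listed were tested, and 4 rose. ETS2, a transcription factor that ID1 can bind, rose from 1637 ± 546 to 6388 ± 896 scaled reads (log2 difference 2.01, adjusted p = 0.000145 from limma), and ELK3, of the ternary complex factor family that ID proteins can also bind, had a log2 difference of 0.89 (adjusted p = 0.00105 from limma). ATF3, which can repress ID1 together with SMAD3, rose from 1048 ± 52.4 to 2569 ± 235 (log2 difference 1.29, adjusted p = 3.27e-05 from limma). ATF3 and ID1 were thus both higher in the libraries labelled nPD-L1. EGR1, an immediate-early factor that can activate ID1, went from 372 ± 84.5 to 686 ± 188 (log2 difference 0.87, adjusted p = 0.0345 from limma), and lost its call without vector replicate 1, vector replicate 3, nPD-L1 replicate 1 or nPD-L1 replicate 3, with an adjusted p of up to 0.153. RB1, which ID2 can bind, and USP1, a deubiquitinase that stabilizes ID proteins, had log2 differences of 0.11 and −0.13 (adjusted p = 0.672 and 0.609 from limma). The groups did not overlap for USP1, which was lower under the nPD-L1 label. Of 4 CDK inhibitor genes that E proteins can activate, only CDKN1A, which encodes p21, was tested. It rose from 2764 ± 393 to 6436 ± 628 scaled reads (log2 difference 1.22, adjusted p = 0.000169 from limma).

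Whether the difference extended to the surroundings of each ID gene was asked with the 2 nearest tested genes on each side. Of these 16 neighbours, 1 passed, and it fell, where 4.96% of all genes tested passed in either direction. BCL2L1, which encodes the survival protein BCL-XL and lies 57.9 kb beyond ID1, went from 3392 ± 164 to 2434 ± 108 scaled reads (log2 difference −0.48, standard error 0.09, adjusted p = 0.0125 from limma), and its call was lost without any one of the nPD-L1 libraries (adjusted p up to 0.0876). HM13, 27.4 kb on the other side of ID1, was at 4385 ± 299 and 4200 ± 207 (−0.06). Next to ID3, E2F2 at 26.7 kb had a log2 difference of 0.30 and ASAP3 at 73.4 kb one of 0.38, and the groups overlapped for both genes (adjusted p = 0.388 and 0.417 from limma). RPL11 and ELOA on the other side of ID3 were at −0.18 and −0.03. Around ID4, MBOAT1 had 0.24, E2F3 0.29, DEK −0.15 and RNF144B −0.48, and around ID2, KIDINS220 had 0.10, MBOAT2 0.14, RNF144A 0.13 and RNF144A-AS1 0.32, none of which passed (smallest adjusted p 0.254, E2F3). The groups did not overlap for E2F3, which was higher under the nPD-L1 label. FRG1BP and ABALON, the outer neighbours of ID1, were at −0.08 and −0.09. Not all neighbours were close to their ID gene. FRG1BP lay 1206 kb from ID1, RNF144A and RNF144A-AS1 1611 and 1760 kb from ID2, and RNF144B and DEK 1369 and 1573 kb from ID4. Genes that far away do not describe the immediate surroundings.

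**Figure D4:**
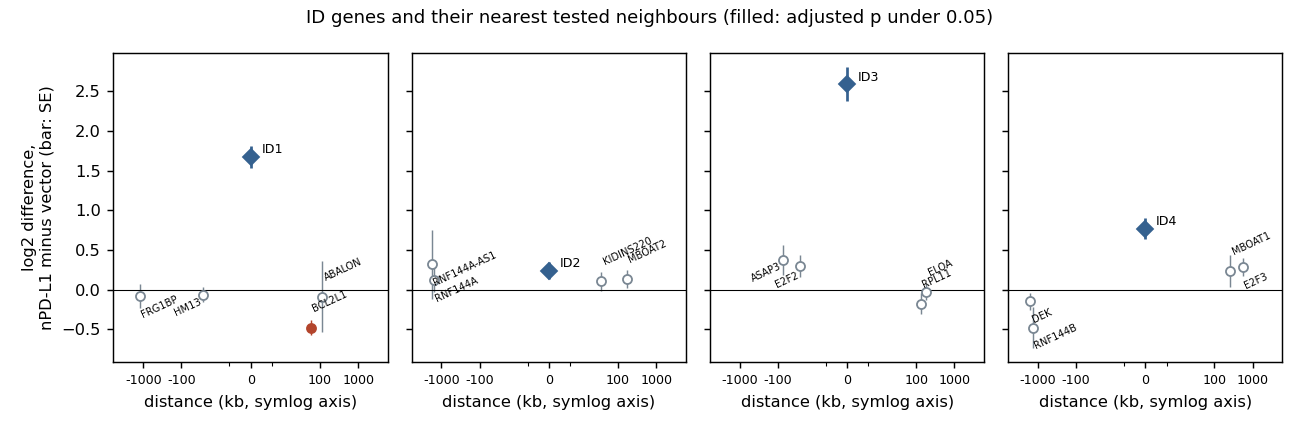
Log2 difference, nPD-L1 minus vector (y axis, bars show the standard error), of each ID gene (diamond) and its 2 nearest tested genes on each side, by distance in kb (x axis, symmetric log scale, lower coordinates to the left). BCL2L1, filled, is the only neighbour with an adjusted p under 0.05 in limma, and it lies below 0.

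The genes whose pattern was most like that of each ID gene were found by Pearson's r of log2(value + 1) over the 6 libraries, among 10721 genes whose mean reached 100. All points share the same libraries and scaling, and a difference between the groups alone gives a high r. Genes picked by r also tend to share the order of the replicates, so that order is no separate result. For ID3 the most alike were DNAJB2 (r = 0.997), MFSD12 (0.996) and RAB31 (0.995), each of which had its highest vector value in replicate 2, at 348, 1604 and 859 scaled reads. For ID1 they were CTNNB1 (0.999), P2RY2 (0.996) and PIM1 (0.995), although CTNNB1 had a log2 difference of 0.29 only, against 1.95 for P2RY2 and 0.85 for PIM1. For ID4, IER5L (0.994) and LINC00963 (0.992) were the most alike. IER5L, like ID4, was highest among the vector libraries in replicate 2 (474) and lowest among those labelled nPD-L1 in replicate 3 (1241). For ID2 they were PDE3B (0.982), SMG9 (0.978) and TMBIM1 (0.972). An r over 0.95 was reached by 11 genes for ID2, against 210 for ID1, 200 for ID3 and 111 for ID4. Because ID2 overlapped between the groups and the other members did not, these counts are no result separate from that difference.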

How the data were processed

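RNA from 6 libraries (3 vector, 3 nPD-L1, grouped by sample title) was sequenced and analysed by a company. The submitters' processing notes name CASAVA, HISAT2 2.0.5 and hg38, and the counter is not given in the sources used here. The authors' deposited values are a signal, reads per gene divided by a size factor per library: 100% of values were whole multiples of 1 read within 1e-04 reads in all 6 libraries, so reads were recovered. The deposited log2 fold change and p-values of the authors' comparison, and their group means, were not used. Coordinates match GENCODE 29 (GRCh38) for 99.8% of genes.

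limma 3.58.1 (R 4.3.3; trend, robust) was run on log2(value + 1) for 15076 genes, those that reached 10 in 3 or more libraries. Fold changes of low genes are thereby understated. Calls were made at a Benjamini-Hochberg adjusted p under 0.05. limma, and edgeR 4.0.16 for the alternative on recovered reads, were tested on simulated data. The members and lists were chosen with earlier results of these data known. Named were the ID genes, CD274, up to 6 called genes a list, a fixed set of pathway genes, the 2 nearest tested genes on each side and the 3 genes most alike; 1 gene under this rule is not reported here. MSC, SMAD2, SMAD3, SMURF1, PPM1A, TGIF1, TGIF2 and ZEB2 lie outside the rule and were named after their values were seen. The paper describes the 3 sequenced samples of each group as independent, but does not say whether they were separate cultures. The p-values therefore measure the spread between these libraries, which may be technical. The labels name no batch. Same-numbered libraries did not deviate together in every pair (r −0.01, 0.23 and 0.13), so replicates were not treated as pairs. Alternatives were other scalings, pseudocounts (0.1 and 10), filters and moderation, the replicate block, and each library left out.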

Additional observations from a re-analysis of the deposited data

How the results depend on the processing

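The log2 differences of ID1, ID2, ID3 and ID4 moved by less than the spread between replicates under all 15 alternatives, and ranged from 1.56 to 1.81, 0.18 to 0.33, 2.42 to 2.89 and 0.70 to 0.87. The other filters, the other moderation and the replicate block leave a gene's log2 difference unchanged by construction. Those alternatives therefore say nothing about the stability of these values. The replicate block gave 927 higher and 258 lower genes (609 and 139 without it) and, among the genes of the lists, changed 2 calls, adding SMAD3 (adjusted p = 0.0207 in limma, 0.120 without the block) and FZR1 (0.00774, 0.0932 without it), so that 10 SMADs and inhibitors and 5 other partners and regulators were called in place of 9 and 4. FZR1 is named after its values were seen. The labels do not say whether equal replicate numbers mark a shared origin. Libraries numbered 2 and 3 correlated best with their own number (r 0.23 and 0.13), and those numbered 1 did not (−0.01). A shared origin was not tested. edgeR on recovered reads called 618 and 142. Leaving out a library gave 331 to 791 higher and 76 to 242 lower genes (both maxima without vector replicate 2), 2 to 4 called receptors and 0 to 1 called neighbours. Directions that turned when a library was left out, all in genes not called, were those of TCF3 (−0.187 to 0.025, turned at 0.010, 0.011 and 0.025 by leaving out vector replicate 1 and the nPD-L1 libraries 2 and 3), SMAD1 (−0.16 to 0.25), SMAD5 (−0.078 to 0.16), RNF144A (−0.017 to 0.23) and KIDINS220 (−0.0065 to 0.19), each turned by leaving out vector replicate 2, FRG1BP (−0.17 to 0.00067), ELOA (−0.094 to 0.0071) and ABALON (−0.70 to 0.32, turned at 0.11, 0.32 and 0.05). The cause was not tested. The lowest library of any ID gene held 399 reads (ID4). Genes near 10 scaled reads, such as NOG and SMAD9 for vector, rest on few reads.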
